A study of Mus musculus with 2 samples.

Results

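The interferon-inducible GTPases described here are Igtp, Irgm1, Irgm2, Iigp1, Tgtp1, Tgtp2, Ifi47, Gbp2, Gbp4 and Gbp7. They were chosen by gene symbol, with earlier results of these data known, and all 10 were found among the 31053 genes of the count table. The RNA of single cells from mediastinal lymph nodes (MedLNs) was sequenced in 2 libraries, both from wildtype (WT) C57/B6J mice, a strain name given as the labels spell it, aged 5 to 13 weeks. All mice were sensitised by intraperitoneal injection of 50 µg ovalbumin (OVA) with alum on days 0 and 7, challenged intranasally from day 14 to day 16, and analysed on day 17. The library labelled OVA came from such asthmatic mice without butyrate, and the library labelled C4 from asthmatic mice given butyrate, a short-chain fatty acid, from before the induction of asthma. The cells of 4 mice were pooled in each library, there were no mice without asthma, and the route by which butyrate was given for these libraries is not given in the sources used here.

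These genes encode large GTPases that cells make in response to interferons. The immunity-related GTPases (IRGs) fall into 2 classes, the GMS proteins Igtp (Irgm3), Irgm1 and Irgm2, which act as regulators on the cell's own membranes, and the GKS proteins Iigp1 (Irga6), Tgtp1 and Tgtp2 (Irgb6) and Ifi47 (Irgd), the effectors that load onto the vacuoles of intracellular pathogens. The guanylate-binding proteins Gbp2, Gbp4 and Gbp7 are the larger relatives that join them there. Interferon gamma drives such genes through gamma-activated sites (GAS) in their promoters, and type I interferon drives many of them through interferon-stimulated response elements (ISRE).

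Each condition had 1 library, so no test between conditions was possible and no p-value is given. Every interval below is a 95% interval that covers counting error only, not the differences between mice, and a difference between the libraries cannot be told apart from a difference between 2 pools of mice or 2 preparations. After removal of low-quality cells and doublets, 8774 cells without and 8013 cells with butyrate remained, with medians of 5075 and 5649 UMIs (unique molecular identifiers, each standing for 1 captured RNA molecule) and of 3.73% and 3.92% mitochondrial UMIs. There were 25 cell barcodes that occurred in both libraries. Cells were sorted into lineages by the UMIs of Cd79a, Cd3e, Cd4, Cd8a and Lyz2 alone, which gave 4056 and 3781 B cells, 958 and 844 CD4 T cells, 1447 and 1446 CD8 T cells, 1036 and 810 other T cells with Cd3e alone, and 29 and 23 cells with Lyz2, without and with butyrate. Markers the gates did not use went with these names: Cd79b was detected in 98.6% and 98.8% of B cells, Cd3d in 98.1% and 98.6% of CD4 T cells, Cd8b1 in 97.9% and 98.1% of CD8 T cells, and Tyrobp in 93.1% and 91.3% of cells with Lyz2. In other T cells Trac was detected in 85.8% and 87.3%, Cd8b1 in 19.8% and 17.2% and Trdc in 8.78% and 8.89%. That group is therefore a mixed set of T cells and not 1 lineage. The other 1248 and 1109 cells met none of these gates, for instance with no marker or with markers of more than 1 lineage. They enter only the values for all cells.

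Of the 10 genes, 9 lie in few places of the mouse genome (build mm10, GENCODE M21 annotation). Irgm1 at chr11:48861968-48871683, Tgtp1 at chr11:48985327-48994172, Tgtp2 at chr11:49057194-49064206 and Ifi47 at chr11:49076587-49096974 form a cluster of 235 kb. Igtp at chr11:58199556-58207591 and Irgm2 at chr11:58199618-58222782 overlap on the same strand. Gbp7 at chr3:142530342-142550149 and Gbp2 at chr3:142620602-142638008 span 108 kb and Gbp4 is at chr5:105115767-105139586. The longest transcripts of Tgtp1 and Tgtp2 were identical at 2804 of 2810 aligned bases and at all 500 of their last 500 bases, so reads of the 3′ end cannot be assigned to either one, and how UMIs divide between the pair is uncertain. Annotated overlaps on the same strand make the split of reads uncertain also between Igtp and Irgm2, Gbp4 and its neighbours Gbp8 and Gbp9, Tgtp1 and Gm12185, and Ifi47 and Olfr56.

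What these genes share in promoter sequence was read from RefSeq promoter windows of build GRCm38.p6 (mm10), each from 250 bases before to 50 bases after the transcription start. Such a window was read for 8 of the 10 genes. None was found for Gbp4, and Iigp1 was not part of this search. The ISRE core GAAANNGAA, searched on both strands, was present in 7 of the 8 windows, and the palindromic GAS motif TTCNNNGAA in 5. Among all 32851 RefSeq promoters, 8.56% held the ISRE core, 8.30% held GAS and 1.07% held both, while 5 of the 8 GTPase windows held both. These 5 windows are not independent cases. Igtp and Irgm2 share nearly the same stretch around the motifs, and so do Tgtp1 and Tgtp2. The Ifi47 window held neither, and no other window of that gene was searched. The stretches that carry the motifs are shown from 5′ to 3′ on the strand of each gene, with the motif letters in capitals.
Igtp, chr11:58199499-58199542 (+): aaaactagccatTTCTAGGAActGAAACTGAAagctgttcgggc
Irgm2, chr11:58214890-58214933 (+): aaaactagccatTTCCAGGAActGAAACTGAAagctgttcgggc
Tgtp1, chr11:48992303-48992346 (-): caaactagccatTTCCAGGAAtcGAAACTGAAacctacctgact
Tgtp2, chr11:49064262-49064305 (-): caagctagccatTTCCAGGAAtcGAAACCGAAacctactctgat
Irgm1, chr11:48871424-48871462 (-): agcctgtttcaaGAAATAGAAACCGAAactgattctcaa
Gbp2, chr3:142620593-142620625 (+): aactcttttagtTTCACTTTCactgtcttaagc
Gbp7, chr3:142530218-142530304 (+): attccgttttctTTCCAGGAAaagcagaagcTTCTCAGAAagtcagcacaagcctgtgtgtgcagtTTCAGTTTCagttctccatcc

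In Igtp, Irgm2, Tgtp1 and Tgtp2 the GAS came first and the ISRE core followed after 2 bases, a composite shared by both IRG classes. Irgm1 held no GAS match, and its capitals are 2 overlapping ISRE cores. Gbp7 held 2 GAS matches, the first of them 45 bases before an ISRE core, and Gbp2 held an ISRE core alone. In both Gbp genes the ISRE core lies on the opposite strand. All matches lay before the RefSeq start that set their window. That start can differ from the GENCODE one, and the matches of Irgm1, Irgm2, Tgtp1 and Gbp2 lay inside the GENCODE gene spans given above. A match is a run of letters and not a measured binding site.

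**Figure D1:**
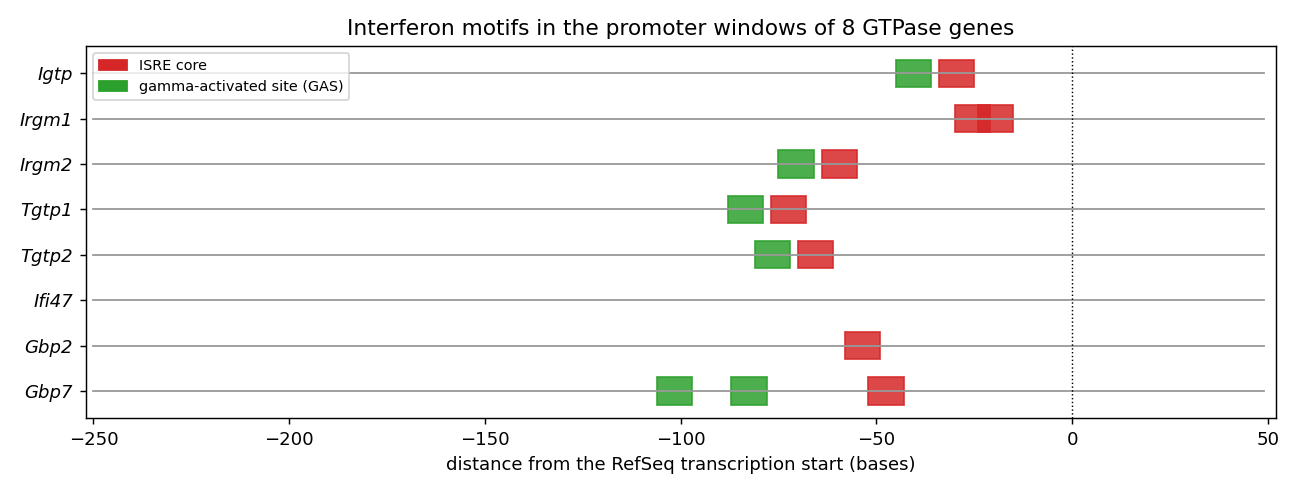
Position of the ISRE core (red) and GAS (green) motifs in the promoter windows of 8 GTPase genes, against the distance in bases from the RefSeq transcription start (dotted line at 0). The adjoining GAS and ISRE boxes of Igtp, Irgm2, Tgtp1 and Tgtp2 lie between -88 and -26 bases, and the Ifi47 line is empty.

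Levels are given as CPM, the UMIs of a gene per 1000000 UMIs of all genes summed over the cells of a lineage. They were compared between lineages for each gene, and not between genes. The 10 genes together reached 195 CPM (95% Poisson interval 189 to 201) in B cells, 638 (618 to 659) in CD4 T cells, 710 (695 to 727) in CD8 T cells and 783 (759.5 to 807) in other T cells without butyrate. With butyrate, the sums were 142 (137 to 147), 462 (445 to 480), 522 (509 to 535) and 539 (518 to 560) CPM in the same order. T cells therefore held more GTPase RNA relative to all RNA than B cells in both libraries, by 3.28-fold in CD4 T cells and 3.65-fold in CD8 T cells without butyrate, and by 3.25-fold and 3.67-fold with it. All 10 genes had this direction in both libraries. RNA freed from broken cells can give UMIs to every cell, and T cell marker genes reached 1.86% and 1.87% of their CD4 T cell level in B cells, whereas the GTPase sum in B cells was 30.5% and 30.8% of its CD4 T cell level. Of the marker CPM in B cells, Lck alone gave 30.8 of 63.7 without and 27.3 of 61.2 with butyrate. The B cell gate also let in no cell with a UMI of Cd3e, Cd4 or Cd8a. The marker level is thus only a rough gauge of freed RNA.

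**Figure D2:**
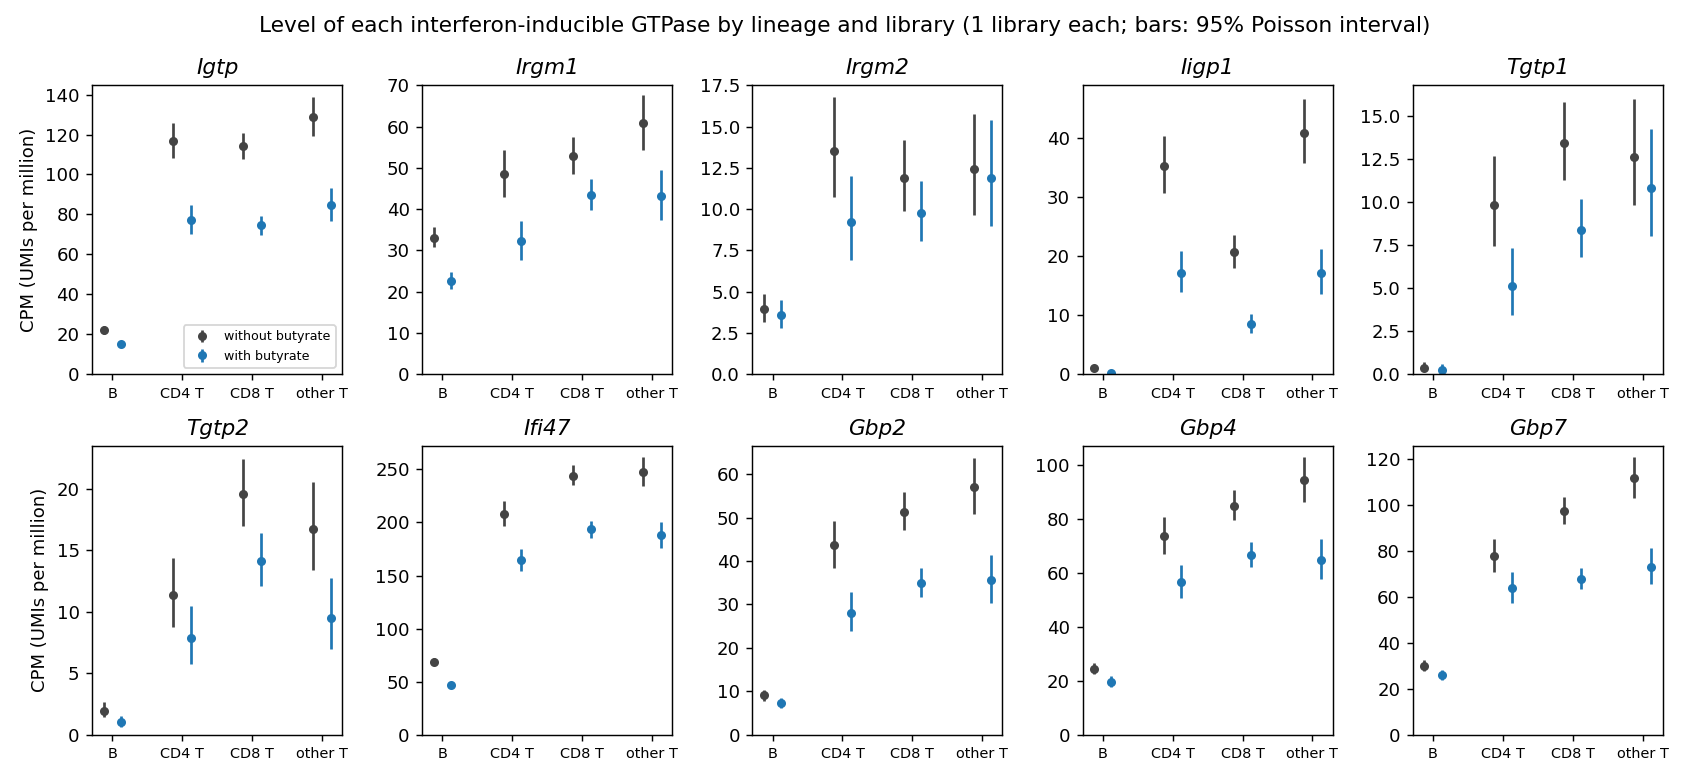
CPM of each of the 10 genes (vertical axis from 0, each panel on its own scale) in B, CD4 T, CD8 T and other T cells, without butyrate (grey) and with butyrate (blue); bars are 95% Poisson intervals of 1 library each. The B cell point is the lowest in every panel of both libraries, and each blue point lies below its grey neighbour.

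Among the GMS regulators, Igtp was present at 21.9 CPM in B cells, 117 in CD4 T cells and 114 in CD8 T cells without butyrate, and at 15.0, 77.4 and 74.4 CPM with it. Its CD4 and CD8 T cell levels had overlapping intervals in both libraries. Irgm1, the regulator best known for its part in autophagy, was the gene with the smallest gap between the lineages, at 33.1 CPM in B cells, 48.5 in CD4 T cells and 52.9 in CD8 T cells without butyrate. With butyrate Irgm1 stood at 22.6, 32.2 and 43.5 CPM, so that CD4 T cells exceeded B cells by 1.46-fold and 1.43-fold in the 2 libraries, less than for any other member. Irgm2 was found at 3.92, 13.5 and 11.9 CPM without and at 3.57, 9.20 and 9.76 CPM with butyrate in B, CD4 T and CD8 T cells.

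Of the GKS effectors, Iigp1, Tgtp1 and Tgtp2 had larger folds of T over B cells than any other member in both libraries, and Ifi47 did not. For Tgtp2 in CD4 T cells this rank was not resolved. Its folds there were 5.78 without and 7.74 with butyrate, against 5.34 and 5.14 for Igtp, with intervals that overlapped in both libraries. Iigp1 was found at 35.3 CPM in CD4 T cells and 20.7 in CD8 T cells without butyrate, against 1.05 CPM, or 23 UMIs, in all B cells. With butyrate Iigp1 stood at 17.2 CPM in CD4 T cells, 8.45 in CD8 T cells and 0.145, or 3 UMIs, in B cells. It was the only member with non-overlapping intervals and a higher level in CD4 than in CD8 T cells in both libraries. These intervals take UMIs as independent, although Iigp1 UMIs were bunched in few cells. Without butyrate 1 CD4 T cell gave 18 of 209, and with butyrate 1 CD8 T cell gave 10 of 103. The B cell level of Iigp1 was 2.97% and 0.841% of its CD4 T cell level, against 1.86% and 1.87% for the T cell markers. The B cell value with butyrate rests on 3 UMIs (0.0298 to 0.423 CPM). Without butyrate the 23 UMIs came from 12 cells with up to 4 in a cell. Whether Iigp1 in B cells lay below or above that background is therefore not resolved at this depth. Tgtp1 was at 3.72% and 4.72% of its CD4 T cell level in B cells, on only 8 and 5 UMIs there. It reached 0.364 CPM in B cells, 9.80 in CD4 T cells and 13.4 in CD8 T cells without butyrate. With butyrate Tgtp1 stood at 0.241, 5.11 and 8.36 CPM. Tgtp2, its near-identical neighbour, reached 1.96, 11.3 and 19.5 CPM without and 1.01, 7.84 and 14.1 CPM with butyrate. How UMIs divide between the pair is uncertain, so their sum is given too. The sum was 2.32 CPM in B cells, 21.1 in CD4 T cells and 32.9 in CD8 T cells without butyrate. With butyrate it was 1.25, 12.95 and 22.5 CPM. The contrast of T over B cells was smaller for this sum than for Iigp1 in both libraries. In contrast to Iigp1, Tgtp2 was higher in CD8 than in CD4 T cells in both libraries, with intervals that did not overlap. Ifi47 reached 69.1 CPM in B cells, 208 in CD4 T cells and 244 in CD8 T cells without butyrate, and 46.5, 165 and 193 CPM with it.

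The GBPs followed the T cell pattern at intermediate contrast. Gbp2 stood at 9.06, 43.6 and 51.3 CPM without and 7.33, 28.1 and 35.0 CPM with butyrate in B, CD4 T and CD8 T cells. Gbp4 stood at 24.4, 73.7 and 84.96 CPM without and 19.7, 56.6 and 66.6 CPM with it. Gbp7 stood at 30.1 CPM in B cells without and 26.1 CPM with butyrate, and reached 77.9 and 63.9 CPM in CD4 T cells and 97.5 and 67.9 CPM in CD8 T cells. In the few cells with Lyz2, a gene of macrophages and other myeloid cells, the 10 genes summed to 75 UMIs, or 330 CPM, without and 38 UMIs, or 169 CPM, with butyrate. Gbp7 gave 13 and 23 of these UMIs and Ifi47 gave 25 and 5, and no member reached 50 UMIs there, so single genes cannot be compared in these cells at this depth.

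The study asked how butyrate acts on the MedLN of asthmatic mice, and for the GTPases the comparison is the log2 ratio of CPM with over without butyrate. Every one of the 10 genes was lower in the butyrate library when all cells were summed. The sum of the 10 was lower by 0.46 on the log2 scale in all cells (log2 ratio -0.46, interval -0.49 to -0.43), from 470 to 341 CPM. The ratio was much the same in each large lineage, at -0.45 (-0.52 to -0.39) in B cells, -0.47 (-0.54 to -0.39) in CD4 T cells and -0.45 (-0.49 to -0.40) in CD8 T cells. In cells with Lyz2 it was -0.96 (-1.57 to -0.38). That value rests on 29 and 23 cells, and 1 cell gave 20 of the 75 UMIs without butyrate, so it is not well determined. The median log2 ratio of all tested genes, those with at least 50 UMIs over both libraries, lay near 0, at 0.02 in all cells, 0.05 in B cells, 0.00 in CD4 T cells and 0.01 in CD8 T cells. The medians of the members tested were -0.50, -0.43, -0.57 and -0.50.

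A lower value in the butyrate library was shared by 10 of 10 members tested in all cells, where 42.4% of the 12138 genes tested were lower. It was shared by 8 of 8 members in B cells against 38.6% of 10349 genes, by 10 of 10 in CD4 T cells against 50.5% of 8736 genes, and by 10 of 10 in CD8 T cells against 46.5% of 9283 genes. Iigp1 and Tgtp1 had too few UMIs to be tested in B cells. Lower by 1.5-fold or more were 2 of the 10 members in all cells (3% of all genes), 1 of 8 in B cells (3.46%), 5 of 10 in CD4 T cells (2.84%) and 3 of 10 in CD8 T cells (1.63%). No member was higher by 1.5-fold in these groups. The counting interval lay wholly below 0 for 10 of the 10 members tested in all cells (12.7% of all genes), 6 of 8 in B cells (9.9%), 9 of 10 in CD4 T cells (8.32%) and 9 of 10 in CD8 T cells (7.66%). The counts past 1.5-fold move with the processing, since many members lie close to that fold, and are given under other settings in the closing section. The members were chosen with earlier results of these data known, so all the counts in this paragraph are a description only.

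**Figure D3:**
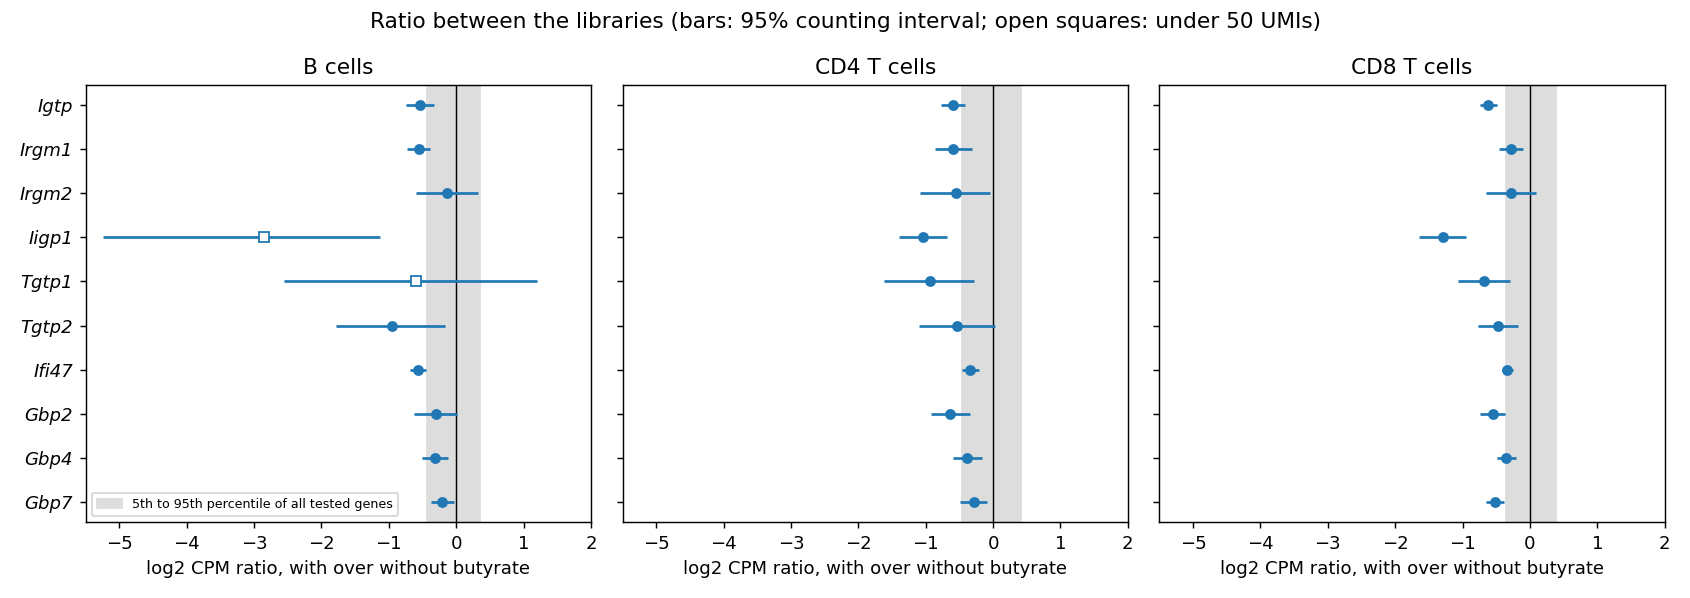
Log2 CPM ratio, with over without butyrate, of each member in B, CD4 T and CD8 T cells, with 95% counting intervals; open squares have under 50 UMIs in all, and the grey band spans the 5th to 95th percentile of all tested genes. All points lie left of 0, and Iigp1 lies farthest left in each panel.

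Iigp1 had the lowest ratio of the members. It was 17.3 CPM without and 6.99 with butyrate in all cells (log2 ratio -1.31, -1.49 to -1.13), and 0.54% of all genes tested had a lower ratio. In CD4 T cells its log2 ratio was -1.04 (-1.39 to -0.69) and in CD8 T cells -1.29 (-1.64 to -0.95). In both its interval did not reach the ratio of the summed members, a sum that includes Iigp1. That interval overlapped the one of Tgtp1 in both lineages, and in CD4 T cells also those of Igtp, Irgm1, Irgm2, Tgtp2 and Gbp2. Iigp1 UMIs were bunched in few cells, so its intervals are too narrow. The other effectors had a smaller estimated decrease, a gap not resolved for Tgtp1 and Tgtp2 in CD4 T cells. Tgtp1 and Tgtp2, whose UMIs cannot be divided with certainty, were summed and went from 869 to 586 UMIs in all cells (-0.56, -0.71 to -0.41). The pair stood at -0.89 (-1.63 to -0.18) in B cells, -0.71 (-1.14 to -0.28) in CD4 T cells and -0.55 (-0.79 to -0.32) in CD8 T cells. Ifi47 was -0.57 (-0.69 to -0.45) in B cells, -0.34 (-0.46 to -0.22) in CD4 T cells and -0.34 (-0.42 to -0.25) in CD8 T cells, and its B cell interval overlapped that of CD4 but not that of CD8 T cells.

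Of the regulators, Igtp had an almost equal ratio in each lineage, with -0.54 (-0.75 to -0.33) in B cells, -0.59 (-0.77 to -0.42) in CD4 T cells and -0.62 (-0.74 to -0.49) in CD8 T cells. Irgm1 was -0.55 (-0.72 to -0.38) in B cells, -0.59 (-0.86 to -0.32) in CD4 T cells and -0.28 (-0.45 to -0.11) in CD8 T cells. Irgm2 had the ratio nearest to 0 in all cells (-0.27, -0.47 to -0.06), and its interval reached 0 in B cells (-0.13, -0.60 to 0.33) and in CD8 T cells (-0.29, -0.66 to 0.09). The CD4 T cell value was -0.55 (-1.08 to -0.04). Although Igtp and Irgm2 overlap in the genome, their intervals did not overlap in all cells, where Igtp was -0.59 (-0.66 to -0.52).

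Each of the 3 GBPs had a ratio nearer to 0 in B cells than in either T cell lineage. Gbp2 was -0.31 (-0.62 to 0.01) in B cells, -0.63 (-0.92 to -0.34) in CD4 T cells and -0.55 (-0.74 to -0.36) in CD8 T cells. Gbp4 was -0.31 (-0.50 to -0.12), -0.38 (-0.59 to -0.17) and -0.35 (-0.49 to -0.21) in the same lineages, and its CD4 T cell value changed sign under a stricter gate, as given in the closing section. Gbp7 was -0.20 (-0.37 to -0.04) in B cells, -0.29 (-0.49 to -0.09) in CD4 T cells and -0.52 (-0.66 to -0.39) in CD8 T cells. The intervals of Gbp2 and of Gbp4 overlapped between lineages, so these gaps were not detectable at this depth. Those of Gbp7 in B and CD8 T cells were only narrowly apart, with nearest ends at -0.37 and -0.39. Like the other intervals here they take UMIs as independent, although the top 1% of B cells with butyrate held 27.2% of Gbp7 UMIs. The Gbp7 gap is therefore not resolved either.

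Narrower sets of cells gave the same direction for the sum. In B cells with Ighd, the IgD heavy chain of naive B cells, the sum was -0.51 (-0.58 to -0.44) from 3818 and 3614 cells. These are most of the 4056 and 3781 B cells, so the shared direction follows largely from the overlap. In CD4 T cells with Foxp3, the regulatory T cell factor, it was -0.26 (-0.45 to -0.06), from only 85 and 77 cells. Within those cells Iigp1 went from 49 to 19 UMIs (-1.25, -2.10 to -0.46), while Irgm1 was 0.06 (-0.76 to 0.88), Gbp7 0.01 (-0.48 to 0.50) and Ifi47 -0.17 (-0.53 to 0.19), with intervals that reached 0.

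How the RNA was spread over cells was read after each cell had been thinned to 2000 UMIs, because cells of the butyrate library held more UMIs. At this depth 28.4% (27.0 to 29.8) of B cells, 61.8% (58.7 to 64.9) of CD4 T cells and 66.8% (64.3 to 69.2) of CD8 T cells without butyrate had at least 1 UMI of the 10 genes, and 64.6% of other T cells. With butyrate these shares were 21.8% (20.5 to 23.1), 53.1% (49.7 to 56.5), 59.8% (57.2 to 62.3) and 58.3%. Without thinning they were 50.9% and 42.3% of B cells, 86.6% and 84.4% of CD4 T cells and 93.9% and 91.9% of CD8 T cells. Cells with 5 or more GTPase UMIs made up 0.47%, 5.56% and 6.15% of B, CD4 T and CD8 T cells without butyrate and 0.16%, 3.33% and 2.49% with it. These cells carried 27.0% of the GTPase UMIs of CD4 T cells and 25.1% of those of CD8 T cells without butyrate, against 20.3% and 14.3% with it. Cells with 10 or more GTPase UMIs were 7 and 2 of the CD4 T cells and 0 and 4 of the CD8 T cells, without and with butyrate. When the cells with 5 or more were left out, the mean was 1.08 UMIs per CD4 T cell and 1.18 per CD8 T cell without butyrate and 0.83 and 0.98 with it.

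**Figure D4:**
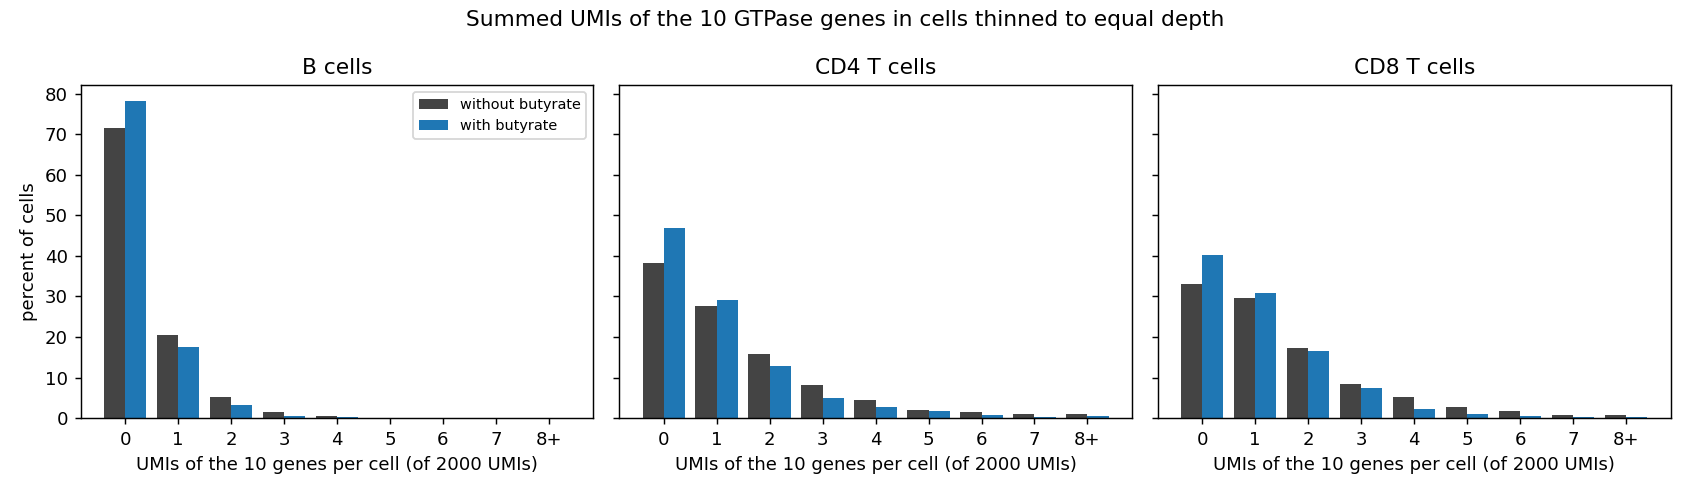
Share of cells in percent (vertical axis) by their summed UMIs of the 10 genes (horizontal axis) after thinning to 2000 UMIs per cell, without butyrate (grey) and with butyrate (blue). In each lineage the blue bar is higher at 0, as for B cells at 78.2% against 71.6%, and lower from 2 UMIs upward, with all cells of 8 or more UMIs pooled in the last bar.

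The members were weakly correlated from cell to cell. Over the 45 pairs, the median Pearson r in thinned cells was 0.034 in B cells, 0.104 in CD4 T cells and 0.058 in CD8 T cells without butyrate, and 0.068 and 0.044 in CD4 and CD8 T cells with it. In B cells with butyrate it was 0.025 over 36 pairs, since no thinned cell there held Iigp1. All cells of a library share 1 preparation, and in counts this sparse a low r is no finding. The pairs with the highest r were Iigp1 with Gbp7 in CD4 T cells without butyrate, at 0.229 over 954 cells, and Iigp1 with Gbp4 in CD4 T cells with butyrate, at 0.222 over 840 cells. Seen as detection, Ifi47 was found in 44.1% of CD8 T cells with an Igtp UMI and 34.1% of those without one in the library without butyrate, and in 40.1% and 29.6% with butyrate.

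Of the genes outside the family, those most like the summed GTPases were chosen by the lower of the 2 libraries' r, among genes found in at least 5% of cells. In CD4 T cells they included Ifit1, with an r of 0.243 without and 0.216 with butyrate, Isg15 (0.253 and 0.192), Ifi203 and Rtp4. For CD8 T cells they included Isg15 (0.212 and 0.201), Ifit1 (0.212 and 0.196), Zbp1 and Slfn5. In B cells the order was Slfn5 (0.211 and 0.189), Ifi203, Trim30a, Ifi206 and Ifi27l2a. The median r over all 3766 genes eligible in CD4 T cells was -0.002 without and -0.003 with butyrate.

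The members were also compared with 18 type I interferon effectors, such as the antiviral genes Ifit1, Isg15, Rsad2 and Oas3. These effectors were lower with butyrate too, and by more than the GTPases. Lower by 1.5-fold were 14 of 17 effectors tested in B, 15 of 18 in CD4 T and 13 of 17 in CD8 T cells. Of all genes tested, 3.46%, 2.84% and 1.63% were lower by that fold in these lineages. The median log2 ratios of the effectors were -0.78, -0.99 and -0.83. This list was chosen with earlier results of these data known, so its counts are a description only. Isg15 was -1.01, -1.33 and -1.24 in the 3 lineages, Ifit1 was -0.87, -0.95 and -1.03, and Oasl2 was -1.08, -1.80 and -1.49. Per cell, the effector sum and the GTPase sum had an r of 0.259 and 0.216 in B cells, 0.275 and 0.197 in CD4 T cells and 0.245 and 0.231 in CD8 T cells, without and with butyrate.

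Cells were also split by their thinned UMIs of the 18 effectors, a split chosen after the values had been seen. The GTPase level went up with the effector level in each lineage and library. In CD8 T cells without butyrate the mean was 0.878 GTPase UMIs per cell (0.751 to 1.02) at 0 effector UMIs, 1.36 (1.28 to 1.44) at 1 to 4 and 1.93 (1.81 to 2.06) at 5 or more. With butyrate it was 0.893 (0.805 to 0.987), 1.08 (1.01 to 1.15) and 1.97 (1.75 to 2.21). The 2 libraries thus overlapped in the lowest and the highest class of CD8 T cells and not in the middle one. In CD4 T cells the means were 0.736, 1.09 and 1.93 without and 0.715, 0.918 and 1.69 with butyrate, and the intervals overlapped in each class. In B cells they were 0.247, 0.346 and 0.832 without and 0.199, 0.256 and 0.759 with it, and only the middle class had intervals apart. The shares of cells in the highest class differed between the libraries, with 18.6% and 8.73% of B cells, 40.9% and 18.2% of CD4 T cells and 31.5% and 10.3% of CD8 T cells, without and with butyrate.

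**Figure D5:**
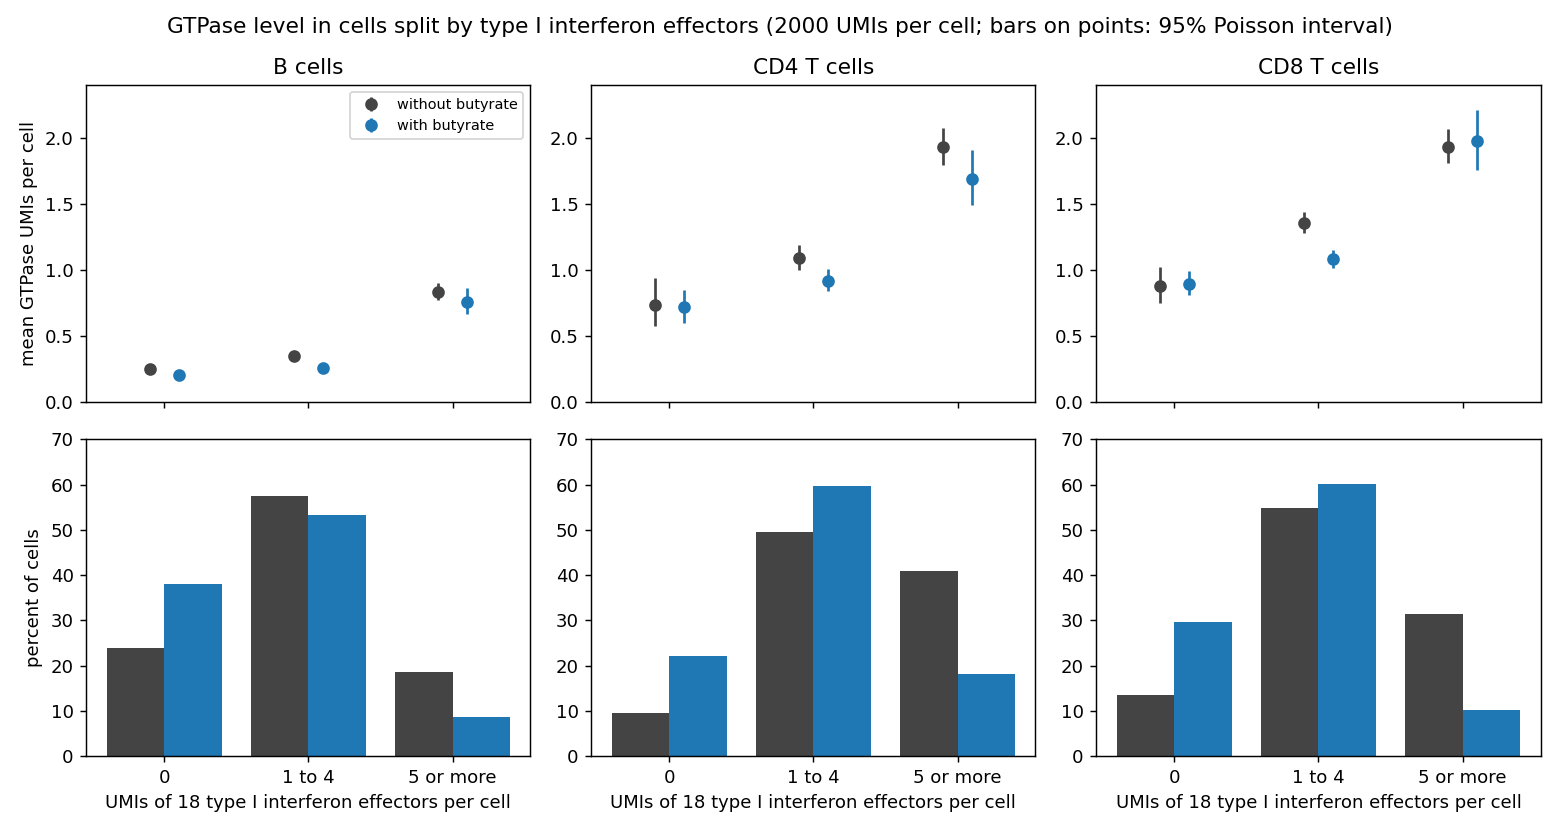
Top, mean GTPase UMIs per cell thinned to 2000 UMIs (95% Poisson intervals) in cells with 0, 1 to 4 or 5 or more UMIs of 18 type I interferon effectors; bottom, the percent of cells in each class; grey without and blue with butyrate. Blue means lie below grey in every class of B and CD4 T cells, and in the middle class alone of CD8 T cells. The highest class holds 10.3% of CD8 T cells with butyrate against 31.5% without.

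The genes that carry the interferon signal differed less than the effectors. Ifng, the gene of interferon gamma, gave 155 UMIs without and 685 with butyrate, but 442 of the latter came from 1 unassigned cell. Without the cell with the most Ifng in each library the level was 2.82 and 4.66 CPM, so it was not lower in the butyrate library, and CD8 T cells held 63 and 108 Ifng UMIs. The type I ligands Ifnb1 and Ifna4 had 0 UMIs in both libraries. Of the receptor genes, Ifngr1 was 0.22 (0.10 to 0.33) in B cells, -0.36 (-0.53 to -0.19) in CD4 T cells and -0.31 (-0.42 to -0.21) in CD8 T cells, and Ifngr2 was 0.07, 0.16 and 0.04 with intervals that reached 0.

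Among the transcription factors, Irf1, which is induced early by interferon gamma, was -0.09 (-0.23 to 0.04) in B cells, -0.39 (-0.57 to -0.21) in CD4 T cells and -0.14 (-0.26 to -0.02) in CD8 T cells. Irf7, the amplifier of the type I response, had larger values of -0.70, -0.98 and -1.21. Stat2 was 0.02 in B cells, -0.78 in CD4 T cells and -0.81 in CD8 T cells, and Irf8 was 0.09, -0.68 and -0.33. The inhibitor Usp18, itself an interferon target, was -0.66, -0.91 and -0.87. Of the 22 signalling genes, 2 of 19 tested in B, 5 of 19 in CD4 T and 3 of 20 in CD8 T cells were lower by 1.5-fold. Of all genes tested, 3.46%, 2.84% and 1.63% were lower by that fold. No signalling gene was higher by that fold, and the median log2 ratios were 0.01, -0.22 and -0.13.

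A further list held 13 targets more typical of interferon gamma, such as the immunoproteasome, Tap1 and Cd274. Of these targets, 11 of 13 were lower with butyrate in all cells, against 42.4% of all genes tested. Lower by 1.5-fold or more were 2 of them, against 3% of all genes, and the median was -0.14. The 2 were the chemokine genes Cxcl9, at -2.09 (-2.68 to -1.53) from 141 and 33 UMIs, and Cxcl10, at -0.96 (-1.27 to -0.66) from 269 and 137 UMIs. Within B, CD4 T and CD8 T cells, 3.46%, 2.84% and 1.63% of all genes tested were lower by 1.5-fold. Of these targets that held for none of the 11 tested in B cells, 1 of 10 in CD4 T cells and none of 11 in CD8 T cells. Their medians were -0.05, -0.19 and -0.13. The 1 gene was Serpina3g, at -1.11 (-1.91 to -0.36) from 48 and 22 UMIs. In CD8 T cells Cxcl10 went the other way, at 1.88 (1.10 to 2.74) from 17 and 72 UMIs, while in the cells with Lyz2 it gave 49 and 4 UMIs. Per cell, the r of the GTPase sum with this list was 0.106 and 0.047 in B cells, 0.198 and 0.142 in CD4 T cells and 0.182 and 0.127 in CD8 T cells, below that with the type I effectors in each case. The lists differ in the number and kind of their genes, and what this order reflects was not tested.

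Of 18 other interferon-inducible GTPases, 16 were in the count table. Lower by 1.5-fold were 2 of the 10 tested in B cells, 2 of 7 in CD4 T cells and 3 of 11 in CD8 T cells. Of all genes tested, 3.46%, 2.84% and 1.63% were lower by that fold. The medians of these other GTPases were -0.20, -0.40 and -0.56. Gbp6 was -0.78 (-1.37 to -0.22) in CD4 T cells and -1.02 (-1.38 to -0.66) in CD8 T cells. Gbp9, which overlaps Gbp4, was -0.16, -0.69 and -0.56 in B, CD4 T and CD8 T cells. Gm4070 was -0.55, -0.40 and -0.82, Mx1 was -0.62 in B cells and -0.09 in CD8 T cells, Gm5431 was -0.72 in B cells, and Gvin1 was -0.63 in CD8 T cells.

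Genes of the Atg8 conjugation machinery, which IRG and GBP proteins need to reach vacuoles, gave medians of -0.06, -0.03 and -0.08. Map1lc3a alone passed 1.5-fold, at -0.60 in CD4 T cells and -0.81 in CD8 T cells. A list of 16 genes of handling stress, whose level can move with tissue dissociation, had medians of -0.01 in B cells, -0.26 in CD4 T cells and -0.24 in CD8 T cells. Lower with butyrate were 8 of 16 tested in B, 13 of 15 in CD4 T and 13 of 15 in CD8 T cells. Of all genes tested, 38.6%, 50.5% and 46.5% were lower in these lineages. Hsph1 was -0.67 in B cells, and Hspa1a was 1.13 in CD4 T cells. The r of the stress sum with the GTPase sum lay between -0.023 and 0.045 in all 6 sets of cells. The part of handling in the GTPase difference was not tested.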

How the data were processed

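Single-cell 3′ RNA (10x Genomics v3) was measured in 2 libraries, with 59176459 UMIs in 9681 cells (OVA) and 58381292 UMIs in 8932 cells (C4). The authors deposited raw UMI counts per gene and cell, made with Cell Ranger 6.0.1 on mm10 per the submitters' processing notes. They are not normalized. Of the 31053 gene identifiers, 31011 matched GENCODE M21.

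From these counts, 186 and 327 cells were dropped for a mitochondrial share above 10% or fewer than 200 genes. A further 721 and 592 cells, ranked highest by Scrublet in scanpy 1.11.5 (0.8% for each 1000 cells), were dropped as doublets. B cells had Cd79a and none of the other markers. CD4 and CD8 T cells had Cd3e with Cd4 or Cd8a and no other marker, and other T cells Cd3e alone. Cells with Lyz2 had at least 3 UMIs of it and neither Cd79a nor Cd3e. UMIs were summed per lineage, and log2 ratios of CPM were formed without a pseudocount, with exact conditional binomial intervals. CPM has exact Poisson and shares have exact binomial (Clopper-Pearson) intervals at 95%. Genes with at least 50 UMIs over both libraries count as tested, meaning compared, since no statistical test was made. The ratio step was also run on counts simulated with counting error alone. Such a run cannot check the intervals for spread between cells, mice or preparations. Correlations used log counts of cells thinned to 2000 UMIs.

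Every member is named. Of the other lists, genes past 1.5-fold in B, CD4 T or CD8 T cells are named by this rule, apart from items not reported here, besides Irf1, Ifng, Ifngr1 and Ifngr2, and examples of the type I effectors. The members and lists were chosen with earlier results of these data known. Alternatives were other cell filters, gates, depths, pseudocounts, UMI minimums and scalings, including TMM (edgeR 4.0.16, R 4.3.3). Other versions were Python 3.11.15, numpy 2.4.6, scipy 1.17.1, pandas 2.3.3 and biopython 1.88.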

Additional observations from a re-analysis of the deposited data

How the results depend on the processing

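The summed log2 ratio stayed below 0 in all 58 alternative values, at -0.53 to -0.45 in all cells, -0.57 to -0.43 in B cells, -0.51 to -0.26 in CD4 T cells, -0.48 to -0.40 in CD8 T cells and -1.16 to -0.45 in cells with Lyz2. It left its interval with thinned cells (-0.53 in all cells and -0.57 in B cells) and in CD4 T cells with Foxp3 (-0.26). Leaving out cells whose barcode occurs in both libraries, chosen after seeing the data, gave -0.46, -0.45, -0.47 and -0.45 in all, B, CD4 T and CD8 T cells. Of 374 alternative values for 38 ratios of single members, 373 were below 0 and 358 lay within the interval. The exception in sign was Gbp4 in CD4 T cells gated at 2 UMIs (0.0158). These values leave out the narrower sets of cells, of which CD4 T cells with Foxp3 gave 0.06 for Irgm1 and 0.01 for Gbp7. The cause was not tested.

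Counts of members lower by 1.5-fold moved most, since a fixed fold cuts through their range. In all cells 2 became 4 with thinned cells and 1 with a pseudocount of 10 or 1 CPM. In B cells 1 became 2 without doublet removal, 4 at a limit of 5% mitochondrial UMIs, 3 with thinned cells, with TMM or when ribosomal, mitochondrial and immunoglobulin genes were left out of the total, and 0 with either pseudocount or a minimum of 200 UMIs. In CD4 T cells 5 became 3 at 5% mitochondrial UMIs and with that total, 2 with thinned cells, and 1 with the gate of 2 UMIs or a pseudocount of 10. In CD8 T cells 3 became 5 with that gate and 1 with thinned cells or a pseudocount of 10. Members of cells with Lyz2 had too few UMIs for a count. Median correlations without thinning, on log counts per 10000 UMIs, were 0.054 and 0.033 in B cells, 0.152 and 0.135 in CD4 T cells and 0.123 and 0.131 in CD8 T cells, without and with butyrate. The order of the libraries in CD8 T cells thus depends on the processing. Depth and scaling changed together, so their parts cannot be told apart. No paired analysis was possible because each condition has 1 library, and no library was left out.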
